A study of Mus musculus with 18 samples.

Results

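The genes described here encode the protein subunits of the mitochondrial ribosome. Members were the probe sets of the array annotated to a single mouse gene symbol that starts with Mrpl or Mrps followed by a digit. A probe set is a group of short oligonucleotides on the array that together give 1 intensity. The rule found 156 probe sets among the 45101 of the array, and they stood for 76 of the 18193 genes that had at least 1 probe set with a single symbol. Symbols of the large subunit (Mrpl) accounted for 104 probe sets and 47 genes, and symbols of the small subunit (Mrps) for 52 probe sets and 29 genes. Several probe sets of 1 gene share their target and are not independent of each other, and 34 of the 76 genes had 1 probe set only.

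Mitochondria keep their own ribosome, which translates the few messages encoded in mitochondrial DNA, all of them for membrane proteins of the respiratory chain and ATP synthase. Its RNAs come from the mitochondrial genome, but every protein of it is encoded in the nucleus, translated in the cytosol and imported. Some of these proteins descend from the bacterial ribosome, and others were added during the evolution of mitochondria. In the brain, where neurons depend heavily on oxidative phosphorylation, inherited faults of mitochondrial translation are a known cause of encephalopathy.

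The samples came from transgenic mice, C57BL/6J X DBA/2J by strain and 11 and 14 weeks old, with ages not tied to single samples. Their BAC transgene used orexin (orx) gene sequence to drive a rat cDNA of flag-tagged PABP, a poly(A)-binding protein that coats message tails, followed by an IRES and eGFP. All 18 samples carried this transgene. Mice were perfused with 1% formaldehyde. The 9 IP samples are RNA recovered with the flag tag, labelled as polyA RNA of orexin-expressing cells. The 9 WB samples were total RNA of whole brain, so that the groups differ in RNA type and handling as well as in the cells they come from, and these cannot be told apart. The labels name no separate animal for each sample. P-values therefore reflect only how these samples vary, possibly for technical reasons, and the number of arrays limits precision. In bulk RNA, fewer cells of a type and less RNA per cell cannot be told apart.

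The IP arrays were more variable than the WB arrays. Correlations between arrays over all probe sets ranged from 0.805 to 0.906 within IP and from 0.922 to 0.954 within WB. Among the 156 members, 145 had the larger SD in IP, with a median SD on the log2 scale of 0.67 in IP and 0.25 in WB. Of 11 measured markers of brain cell types, taken on the brightest probe set, 7 rose in IP and 1 fell (median log2 difference 0.74). By that measure 21.9% of all genes rose and 22.1% fell. Brightest means the highest mean intensity over IP and WB arrays together, so that a rise in IP favours the choice. The rises included the astrocyte marker Gfap with means of 12.98 in IP and 10.28 in WB, the microglial marker Csf1r with 12.33 in IP and 10.55 in WB, and the oligodendrocyte marker Mbp with 15.37 in IP and 14.26 in WB. Other probe sets of these genes did not all rise. Another Gfap probe set had means of 8.15 in IP and 10.36 in WB, slightly above the 10.28 of the rising one in WB. A further Gfap probe set had 10.10 in IP and 9.46 in WB. For Mbp, a dimmer probe set had 10.12 in IP and 13.31 in WB, and another 14.78 and 14.30. The other Csf1r probe sets did not pass. Cx3cr1, also microglial, did not pass on its brightest probe set (log2 difference 0.10). Its other probe set fell, with means of 6.54 in IP and 7.67 in WB. The neuronal marker Snap25 had means of 15.87 in IP and 15.13 in WB. Rbfox3 and Gad1, also neuronal, rose on the brightest probe set (log2 differences of 2.06 and 1.28). Their other probe sets fell (-1.93 and -2.30 for Rbfox3, -3.32 for Gad1). Slc17a7, a further neuronal marker, did not pass (-0.05). The astrocyte marker Aqp4 rose on its brightest probe set (0.68) and fell on the others (-1.03 and -1.12). The endothelial marker Cldn5 fell, with 7.62 in IP and 8.99 in WB. Hcrt, the orexin gene, had a median intensity of 308 in IP and 247.5 in WB, with a log2 difference of 0.21 (SE 0.28, limma adjusted p = 0.568). Array controls for the ends of messages moved with the groups, in unequal ways. The 5' control of Gapdh had means of 8.80 in IP and 11.86 in WB, and its 3' control had means of 12.94 in IP and 13.41 in WB (log2). Beta-actin was lower in IP at both ends (log2 differences of -2.47 at 5' and -2.66 at 3'), as was the transferrin receptor (-1.20 and -1.15). Pyruvate carboxylase differed by 0.32 at 5' and by -2.09 at 3'. The controls for the bacterial transcripts Dap, Lys, Phe and Thr all had a lower difference at 5' than at 3'. These were -1.38 and 0.24 for DapX, -1.71 and 1.23 for LysX, -1.26 and -0.61 for PheX, and -1.73 and -0.01 for ThrX. The 18S RNA differed by -3.51 at 5' and by -0.90 at 3'. The part of these markers and controls in the results was not tested. Levels here are log2(intensity + 16), from intensities the authors made with MAS5.

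The members have no shared position in the genome, lying on 17 chromosomes, with at most 11 genes on one of them. Promoters (250 bases before to 50 bases after the start site, RefSeq, GRCm38.p6) were held for 67 of the 76 genes, in 73 windows, and were searched on both strands for motifs of factors known to drive nuclear genes for mitochondrial proteins. CCGGAAG, bound by ETS factors such as GABPA, was in 34.2% of member windows and 8.86% of all 32851 windows, noncoding genes included. AAGATGGCG, a form of the YY1 motif, was in 8 of 73 and in 461 of 32851, and GCGCATGCG, a form of the NRF1 motif, was in 9.59% and 1.75%. The stretches below are from genes whose probe sets fell, rose or did both, with the motif in capitals, and are written along the strand of the gene. Mrpl39 rose, Mrps24 and Mrps23 did both, and Mrpl42, Mrps21 and Mrps16 fell. They lie at chr16:84735350-84735379, chr11:5707652-5707681, chr11:88204392-88204421, chr10:95501903-95501932, chr3:95871478-95871507 and chr14:20393546-20393575, of which chr11:88204392-88204421 is on the plus strand and the others on the minus strand. The Mrpl39 stretch also matches NRF1 on the opposite strand, 1 base further on. A match says only that these letters occur there.
Mrpl39 (NRF1): aaggagaggcGCGCATGCGcccccgcgtgg
Mrps24 (YY1): cgggtcgcgccggcccAAGATGGCGtggtc
Mrps23 (ETS, opposite strand): tgccgcttccgCTTCCGGtaacagcccgag
Mrpl42 (YY1): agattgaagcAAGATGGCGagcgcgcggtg
Mrps21 (ETS, opposite strand): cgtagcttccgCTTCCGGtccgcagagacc
Mrps16 (ETS, opposite strand): ttgggggcgctCTTCCGGgcttcaggctct

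A larger share of mitochondrial ribosomal protein probe sets than of all probe sets was lower in IP, and a minority was higher. Of the 104 large-subunit probe sets, 14 rose and 50 fell, and 40 did not pass adjusted p 0.05 in limma with Benjamini-Hochberg adjustment over all 45037 probe sets tested. Of the 52 small-subunit probe sets, 6 rose, 25 fell and 21 did not pass. The share that fell was 48.1% in each subunit, against 30.8% of all probe sets. The share that rose was 13.5% in the large and 11.5% in the small subunit, against 14.2% of all probe sets, which is near the background. With a change of at least 2-fold asked as well, 9 large-subunit probe sets rose and 38 fell, and 4 small-subunit probe sets rose and 17 fell (all probe sets: 7.72% rose and 21.9% fell). All 9 IP arrays lay above all 9 WB arrays for 10 members and below them for 31 members, where the background shares were 5.22% and 10.3%.

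The median log2 difference (IP minus WB) was -0.53 over large-subunit and -0.49 over small-subunit probe sets, against -0.23 over all probe sets. The middle 50% of members lay between -1.35 and -0.04. All of these medians depend on how the arrays are scaled. With median centring the median of all probe sets was 0.20, and the members' medians were close to 0, at -0.11 for the large and -0.070 for the small subunit. Cytosolic ribosomal protein genes, given for comparison only, had a median of -0.68 over 105 probe sets, 12 of which rose and 58 of which fell. No test of the difference between the 2 kinds of ribosome was made.

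On each array the members' median level was lower in IP than in WB. The large-subunit median on the log2 scale ran from 7.81 over a middle value of 8.14 to 8.37 on the IP arrays, against 8.88, 8.97 and 9.11 on the WB arrays. The small-subunit median was 8.23, 8.47 and 8.73 at the lowest, middle and highest IP array, against 8.99, 9.16 and 9.24 in WB. In both subunits the groups did not overlap. The median of all probe sets did not overlap either, at 7.40 to 7.77 in IP and 7.89 to 8.14 in WB. Relative to that array-wide median, large-subunit probe sets stood 0.35 to 0.61 higher in IP and 0.74 to 1.18 higher in WB, again without overlap. Small-subunit probe sets stood 0.64 to 1.07 above it in IP and 0.84 to 1.32 above it in WB, and here the groups overlapped.

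**Figure D1:**
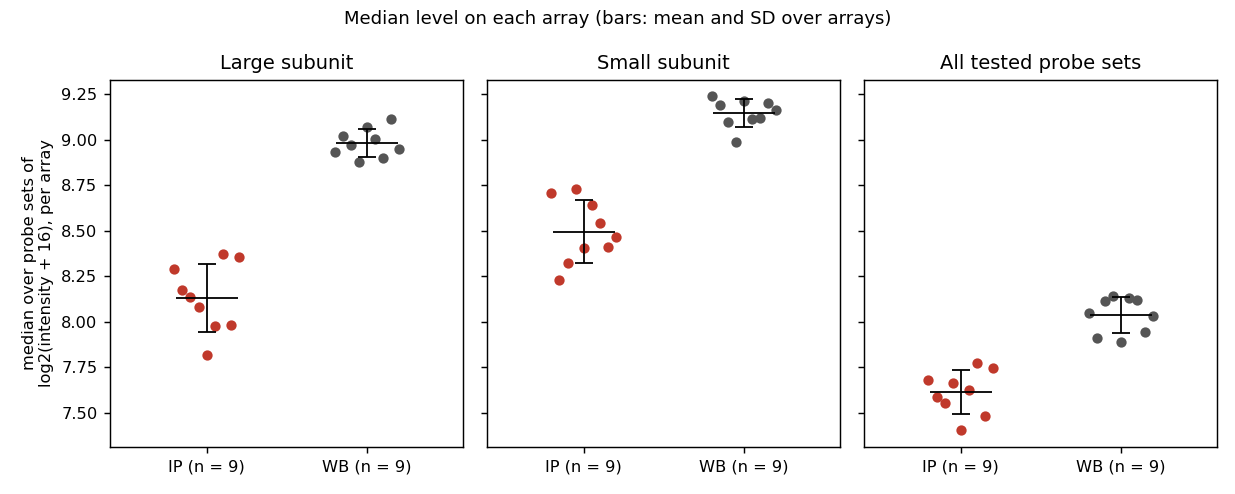
Median of log2(intensity + 16) on each array over large-subunit, small-subunit and all tested probe sets, with 9 IP arrays (red, left) and 9 WB arrays (grey, right) in each panel and bars for the mean and SD. Every IP array lies below every WB array in the 3 panels, and the gap is wider for the members than for all probe sets.

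Genes with 1 and with several probe sets are given apart, since each further probe set is a further chance of a call. Among the 34 member genes with a single probe set, 24 fell, 0 rose and 10 did not pass (limma). At an unadjusted limma p of 0.05, 0 of them were higher, against 16.2% of all genes with 1 probe set. With median centring 15 of them fell and 1 rose. Over all 9183 genes of the array with a single probe set, 20.8% fell and 13.2% rose. These shares were not matched for level. Over all probe sets, 8.83% fell at a WB mean under 7 (log2), 35.4% between 7 and 9 and 48.5% between 9 and 11. The differences of these 34 genes ran from -2.05 for Mrpl20 to 0.00 for Mrps34, with a median of -0.96. Over all 76 genes, 45 had probe sets that fell and none that rose, 15 had at least 1 that rose, and 16 had none past the threshold. In no gene did every probe set rise. These counts pool genes with 1 and with several probe sets, and were not made for all genes of the array. On the brightest probe set of each gene, 13 of the 76 rose and 38 fell, against 21.9% and 22.1% of all genes.

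**Figure D2:**
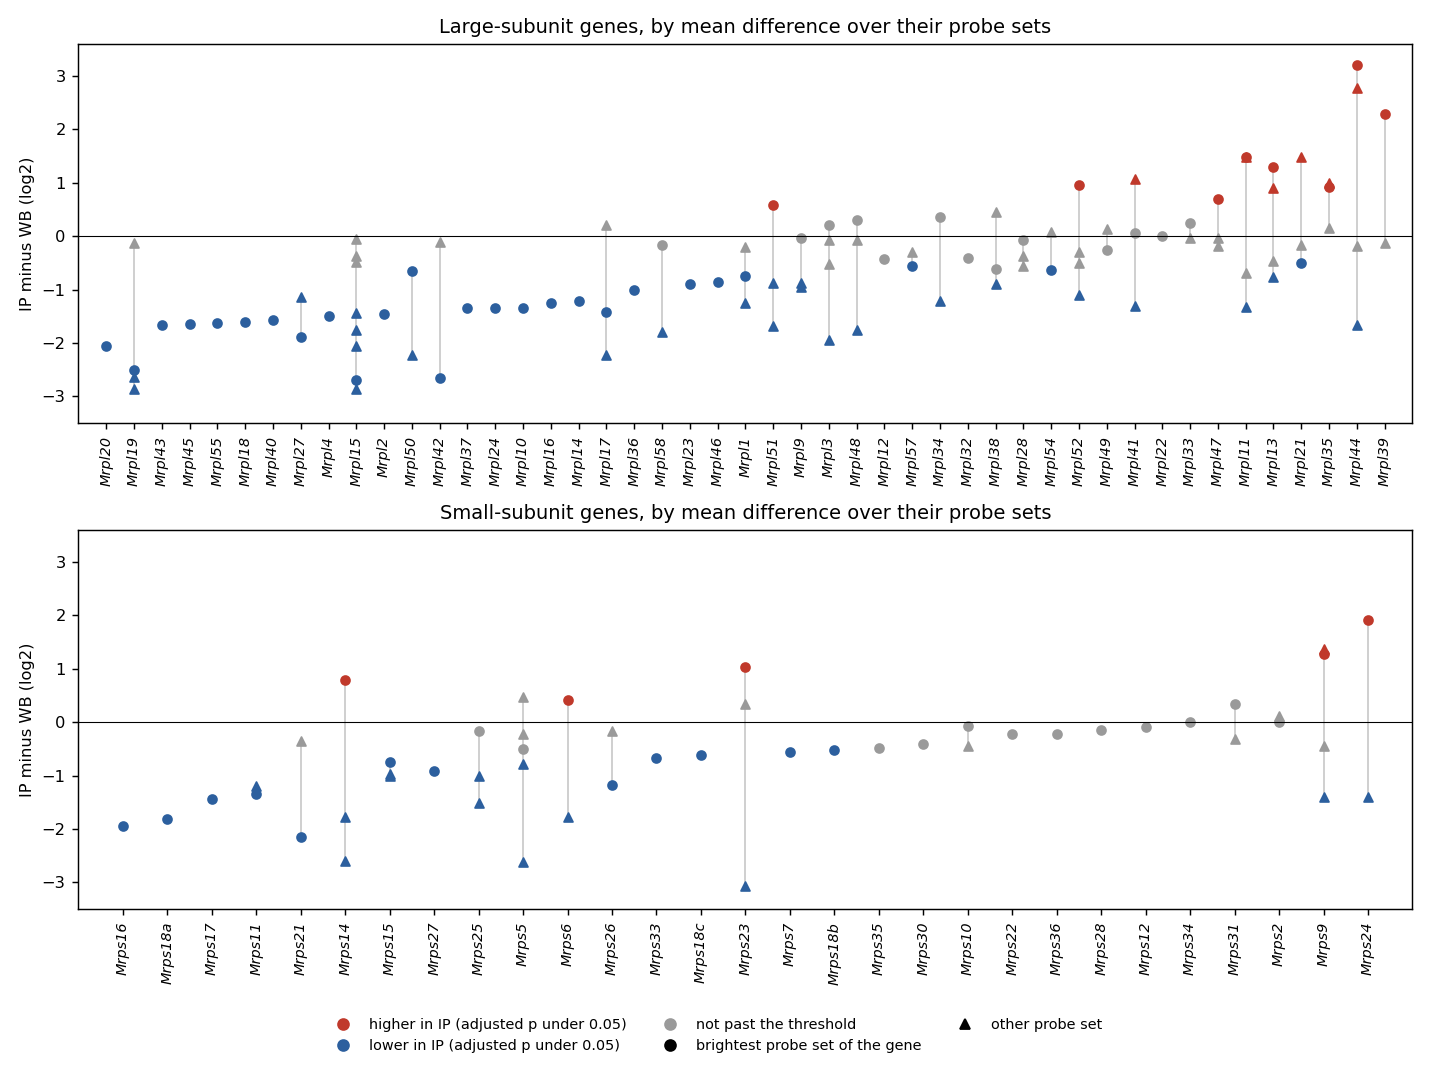
IP minus WB difference (log2) of every probe set of the 47 large-subunit and 29 small-subunit genes, ordered by gene mean, with circles for a gene's brightest probe set and triangles for its others. Red points rose, blue points fell and grey points did not pass adjusted p 0.05, and vertical grey lines join probe sets of 1 gene. Most genes lie below 0, and 12 have red and blue points on the same line.

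The genes in this paragraph were picked by the known place of their bacterial counterparts at the catalytic centre or the exit tunnel, and are not a full list of either. Mrpl4, whose bacterial counterpart lines the exit tunnel, had intensities of 126, 197 and 268 in IP (lowest, median and highest array), against 411, 530 and 997 in WB. All IP arrays were below all WB arrays, a fall of 2.81-fold (log2 difference -1.49, SE 0.20, adjusted p = 1.84e-06). Mrpl2, Mrpl16 and Mrpl27, whose counterparts stand at or near the peptidyl transferase centre, had differences of -1.45, -1.25 and -1.88 on their brightest probe sets, all past the threshold. Mrpl3, whose counterpart also reaches towards that centre, did not pass on its brightest probe set (0.21, adjusted p = 0.410), and of its other 3 probe sets 1 fell, by 1.94. Mrpl24 and Mrpl23, counterparts of proteins at the tunnel exit, fell by 1.34 and by 0.89. Mrpl22, another protein of the tunnel, did not pass and was the member nearest to no difference among the large subunit. Its intensities were 281, 442 and 544 in IP, against 327, 438 and 529 in WB, with a 95% confidence interval of the log2 difference from -0.35 to 0.35.

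The largest falls of the large subunit were in Mrpl15, Mrpl19 and Mrpl42. Mrpl19, counterpart of a protein at the interface of the subunits in bacteria, fell on 3 of its 4 probe sets. Its brightest probe set had intensities of 40.0, 106 and 425 in IP, against 490, 730 and 900 in WB, with no overlap. That is a fall of 5.66-fold (-2.50, SE 0.30, adjusted p = 2.89e-07), and the other probe sets that fell did so by 2.64 and by 2.87 on the log2 scale, the second with an IP mean of 6.07. A mean that low is under the 6.31 reached in IP by the highest of the controls for a transcript absent from mouse RNA. The size of that fall is therefore uncertain. The remaining probe set differed by -0.12 (adjusted p = 0.717).

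Mrpl15, another protein with a bacterial counterpart, had 8 probe sets, the most of any member, of which 5 fell, 3 did not pass and 0 rose. On the brightest, intensities were 61.9, 187 and 413 in IP, against 938, 1199 and 1656 in WB. The groups did not overlap (-2.69, SE 0.28, adjusted p = 2.29e-08), and a further probe set fell by 2.86. The 3 probe sets that did not pass had differences from -0.49 to -0.06.

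Mrpl42, a protein found only in mitochondrial ribosomes, was spread widely in IP on the brightest of its 2 probe sets. Its intensities there were 5.07, 291 and 912, against 1226, 1586 and 2171 in WB. The IP arrays all lay below the WB arrays even so (-2.65, SE 0.48, adjusted p = 6.26e-05). The other Mrpl42 probe set did not pass (-0.11). Mrpl18 and Mrpl20, with 1 probe set each, fell 3.06-fold and 4.15-fold without overlap. Mrpl45, which ties the ribosome to the inner mitochondrial membrane, fell by 1.64 (SE 0.37), although its IP mean of 6.21 was below the 6.31 of that absent control.

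The stalk that recruits translation factors holds Mrpl10, Mrpl11 and Mrpl12. Mrpl10, the base on which the stalk is built, fell by 1.34 (SE 0.25, adjusted p = 8.14e-05). Mrpl12, the stalk protein itself, also known to bind the mitochondrial RNA polymerase, had intensities of 140, 363 and 612 in IP, against 304, 428 and 499 in WB. The groups overlapped, and the log2 difference did not pass (-0.43, SE 0.24, adjusted p = 0.150). The difference between these genes was not tested. Mrpl11, which joins them at the factor-binding site, is among the genes whose probe sets disagreed.

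The rises of the large subunit were led by Mrpl44 and Mrpl39. Mrpl44, a mitochondrion-specific protein with a fold related to ribonuclease III, had intensities of 9091, 11583 and 17598 in IP on its brightest probe set, against 1123, 1291 and 1609 in WB. All IP arrays were far above all WB arrays, a rise of 9.26-fold (3.21, SE 0.13, adjusted p = 7.41e-15). A second probe set rose 6.88-fold. A further probe set had intensities of 33.3, 136 and 263 in IP, against 360, 424 and 528 in WB, with no overlap in the opposite direction (-1.66, SE 0.30, adjusted p = 7.99e-05), and the last was dim in both groups.

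Mrpl39, a mitochondrion-specific protein related to threonyl-tRNA synthetase, had intensities of 12483, 20274 and 31697 in IP, against 3165, 4301 and 5073 in WB, on 1 of its 2 probe sets. This was a rise of 4.91-fold without overlap (2.30, SE 0.16, adjusted p = 4.09e-11). On its other probe set the difference was -0.12 (adjusted p = 0.548), so the rise rests on 1 probe set. Mrpl35 rose on 2 of its 3 probe sets, by 1.90-fold and by 2.01-fold, with overlapping groups. With scaling on hybridization controls these differences were 0.00 and 0.09 (log2) and did not pass, and 6 of all 20 rises of members were left, on Mrpl44, Mrpl39, Mrpl11 and Mrps24. As the mean over its probe sets, Mrpl44 had a difference of 1.04, Mrpl39 of 1.09 and Mrpl35 of 0.70, and these 3 were the only member genes to pass upward in that fit.

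Probe sets of 12 genes passed the threshold in opposite directions, 7 genes of the large and 5 of the small subunit. They made up 28.6% of the 42 member genes with several probe sets, against 1985 of the 9010 such genes on the array. That number fell to 4 genes with scaling on hybridization controls and to 2 without the probe sets whose IDs mark possible sharing of sequence. The gap between a gene's highest and lowest difference ran from 1.97 for Mrpl21 to 4.87 for Mrpl44 on the log2 scale. In Mrpl21 the rising probe set was dim in WB, with a mean of 6.25. That is below the 6.31 of the absent control in IP but above the highest WB mean of such a control, 5.92. Scaling an array as a whole shifts all its probe sets alike, so that it changes the calls but not this gap between differences. Within each array, the level of the rising minus that of the falling Mrpl44 probe set was 5.24 to 8.30 in IP and 1.24 to 2.02 in WB. In all 12 genes this signed value was higher on every IP array than on any WB array. In Mrpl41 (-2.29 to -0.13 in IP, -4.52 to -2.40 in WB) and Mrpl21 it was negative on every array. Their probe sets thus lay closer together in IP. Since these genes were chosen for probe sets that disagree, this is a description.

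**Figure D3:**
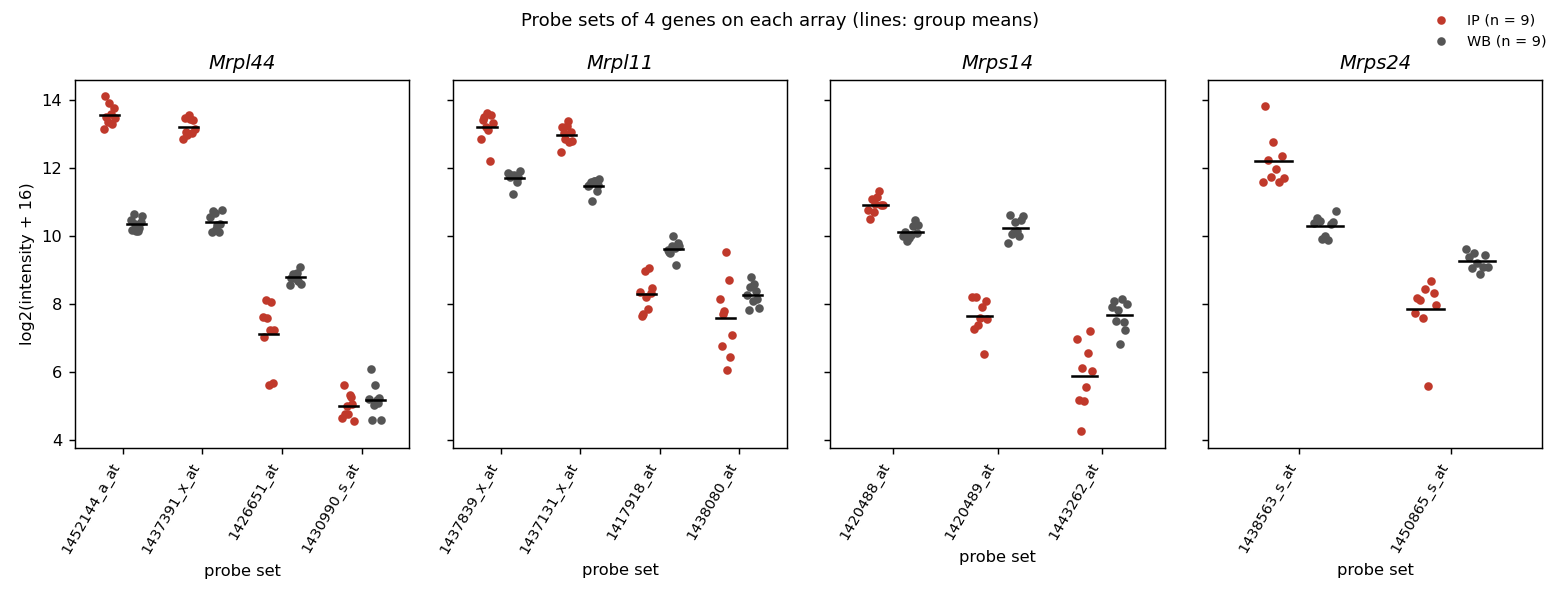
Level, log2(intensity + 16), of each probe set of Mrpl44, Mrpl11, Mrps14 and Mrps24 on the 9 IP arrays (red, left of each pair) and the 9 WB arrays (grey, right), with lines at group means. Within each gene the leftmost probe set is higher in IP and at least 1 other is lower.

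Mrpl11 was such a case. Its brightest probe set had intensities of 4696, 10178 and 12596 in IP, against 2423, 3433 and 3828 in WB, and a second rose alongside it (1.48, SE 0.16 and 1.49, SE 0.13). Another fell, with 186, 306 and 520 in IP, against 556, 783 and 1012 in WB (-1.33, SE 0.20, adjusted p = 5.97e-06). Neither direction overlapped, and the mean over all 4 probe sets did not pass (0.24, adjusted p = 0.103). Mrpl13 rose on its brightest probe set, at 1798, 2596 and 3400 in IP, against 927, 1035 and 1192 in WB (1.30, SE 0.13, adjusted p = 1.03e-08). Another of its 4 probe sets rose by 0.90 and one fell by 0.76. Mrpl51, a mitochondrion-specific protein, rose by 0.59 on its brightest probe set and fell by 1.69 and by 0.87 on the others, and that rise turned to -0.33 with scaling on hybridization controls, where the rises of Mrpl13 and Mrpl41 no longer passed. Mrpl41 fell by 1.31 on one probe set and rose by 1.06 on another that was dim in WB. The WB mean of that rising probe set, 6.18, was below the 6.31 of the absent control in IP. It was above the highest WB mean of such a control, 5.92.

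In the small subunit, rises without overlap were seen in Mrps24, Mrps9 and Mrps14. Mrps24, counterpart of a bacterial protein at the entry of the message channel, had intensities of 3101, 4044 and 14358 in IP, against 938.5, 1316 and 1711 in WB, on its brightest probe set. The groups did not overlap (3.75-fold, 1.91, SE 0.23, adjusted p = 2.28e-07). Its other probe set had 32.4, 266 and 395 in IP, against 458.5, 574 and 765 in WB (-1.40, SE 0.29, adjusted p = 0.00036). IDs of both end in _s_at, a class that can match several transcripts.

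Mrps14 gave a rise and a fall that were each free of overlap. One probe set had 1431, 1929 and 2556 in IP, against 910.5, 1072 and 1419 in WB (0.80, SE 0.13, adjusted p = 2.19e-05). The next had 76.7, 178 and 284 in IP, against 881, 1115 and 1545 in WB (-2.60, SE 0.21, adjusted p = 3.78e-10). Both IDs end in _at, the class with no stated sharing of sequence, and the remaining probe set fell by 1.78 with an IP mean of 5.90, below the absent control. With scaling on hybridization controls the rise turned to -0.12, while the fall stayed a fall.

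Mrps9 rose on 2 probe sets, by 1.28 (SE 0.27) and by 1.36 (SE 0.26), and fell by 1.39 (SE 0.37) on another. Mrps23, a mitochondrion-specific protein, had the deepest fall of all members, on a probe set with 8.61, 13.2 and 97.2 in IP, against 183, 305 and 346 in WB. That difference of -3.07 (SE 0.29) was measured against an IP mean of 5.12, below the absent control, so its size rests on the 16 added before the log. Another Mrps23 probe set rose by 1.03 (SE 0.24). With scaling on hybridization controls the rises of Mrps9 and Mrps23 no longer passed, and that of Mrps6 turned to -0.50. Mrps6, counterpart of a bacterial small-subunit protein, rose by 0.42 on its brightest and fell by 1.78 on its other probe set.

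Falls without a rise on another probe set were seen in 14 small-subunit genes. On its brightest probe set, Mrps21 had intensities of 54.0, 247 and 494 in IP, against 903, 1065 and 1250 in WB. The groups did not overlap (4.45-fold lower, -2.15, SE 0.25, adjusted p = 1.75e-07), while its other probe set did not pass (-0.35). Mrps16 had 11.1, 95.5 and 162 in IP, against 292, 318 and 431 in WB, again with no overlap (-1.95, SE 0.31, adjusted p = 1.49e-05). Both have bacterial counterparts, as does Mrps5, which fell by 2.63 and by 0.78 on 2 of 5 probe sets, the first with an IP mean of 5.38, below the absent control. Mrps15 was lower on all 3 of its probe sets, by 0.75 to 1.01, and Mrps11 on both of its probe sets, by 1.35 and 1.20.

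The 3 relatives of one bacterial protein, Mrps18a, Mrps18b and Mrps18c, all fell, by unequal amounts. Mrps18a, which is known to sit in the large subunit in mammals, had intensities of 68.3, 228 and 319 in IP, against 602, 783 and 1009 in WB. Its fall was 3.51-fold without overlap (-1.81, SE 0.23, adjusted p = 5.57e-07). Mrps18b fell by 0.52 (SE 0.16, adjusted p = 0.0105) and Mrps18c by 0.62 (SE 0.14, adjusted p = 0.000951), with overlapping groups, and both calls were lost with median centring. The differences between the 3 genes were not tested. Mrps30, also placed in the large subunit despite its symbol, did not pass, with intensities of 224, 499 and 627 in IP, against 432, 587 and 791 in WB (-0.42, SE 0.20, adjusted p = 0.0905).

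Several small-subunit genes gave no call. Mrps12, a protein of the decoding centre, had intensities of 278, 873 and 1595 in IP, against 557, 695 and 1400 in WB (-0.09, adjusted p = 0.838, 95% confidence interval -0.70 to 0.53). Mrps36, a small protein now known as a component of the ketoglutarate dehydrogenase complex, had 432, 794 and 1327 in IP, against 721, 945 and 1260 in WB (-0.22, adjusted p = 0.366). The members nearest to no difference were Mrps34 at 0.00 (95% confidence interval -0.52 to 0.52), Mrps2 at 0.01 (-0.38 to 0.39) and Mrps10 at -0.07 (-0.42 to 0.28).

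Calls were also counted by descent from the bacterial ribosome. In the large subunit, 8 of 64 probe sets for genes with a bacterial counterpart rose and 31 fell, with a median of -0.54. Of its 40 probe sets for mitochondrion-specific genes 6 rose and 19 fell, with a median of -0.53 (all probe sets: 14.2% rose and 30.8% fell, median -0.23). In the small subunit, 5 of 35 probe sets with a bacterial counterpart rose and 19 fell, with a median of -0.56. Of its 16 mitochondrion-specific probe sets 1 rose and 6 fell, with a median of -0.37. The remaining small-subunit probe set, of Mrps36, was put in neither class. No test was made of these differences.

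Calls differed with the class of the probe sets and with their level in WB. Of the 20 members that rose, 13 were the brightest probe set of their gene and 14 had IDs of the classes _a_at, _s_at or _x_at, which can match more than 1 transcript. Over the array 6403 probe sets rose, of which 720 were of class _a_at, 511 of _s_at, 1001 of _x_at and 4171 of the remaining main class, _at. Of the 6403, 3992 were the brightest of their gene. The 6403 also include probe sets without a single gene symbol, which were not counted as brightest. Brightness was ranked on the mean intensity over IP and WB arrays together, so that a rise in IP itself raises the rank. The 13 of 20 are also near the share over the array, and are a description only. Among the 14 members of class _x_at, 6 rose and 2 fell, close to the 41.0% and 15.1% of all such probe sets. In class _at, 6 of 102 members rose (5.88%) and 52 fell (51.0%), against 11.6% and 30.8% of all probe sets of that class. Among members with a WB mean between 7 and 9 on the log2 scale, 58.6% fell, against 35.4% of all probe sets in that range. Between 9 and 11 the shares that fell were 52.7% of members and 48.5% of all probe sets, and of the 7 members above 11, 5 rose, against 40.1% of all probe sets there. Brightness also reflects how well each probe set binds its target.

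**Figure D4:**
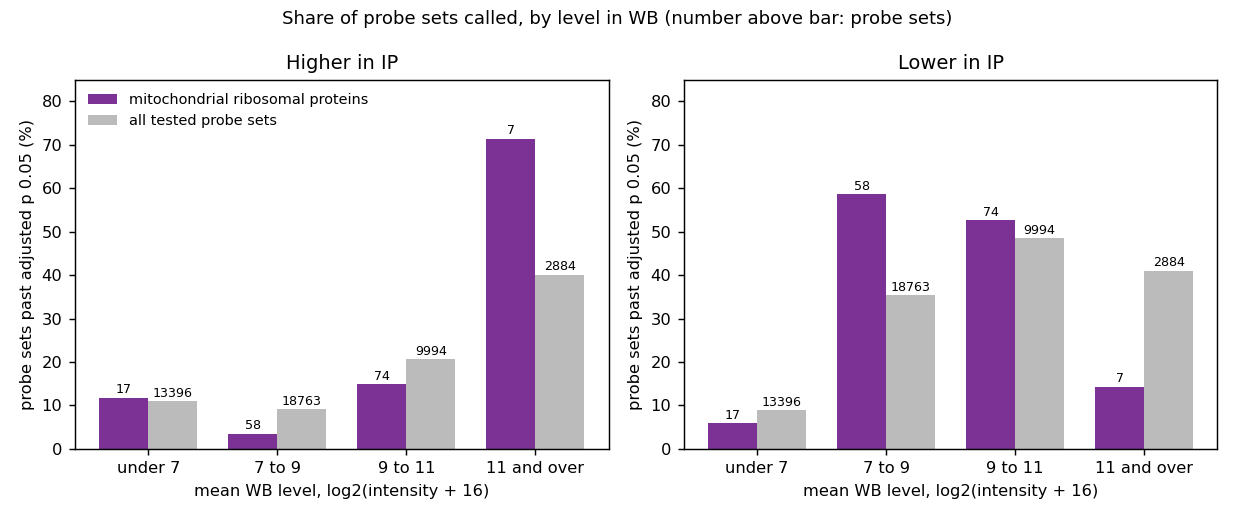
Share of probe sets that were higher (left panel) or lower (right panel) in IP at adjusted p 0.05, by mean WB level in log2(intensity + 16), for the 156 members (purple, left bar) and all 45037 tested probe sets (grey, right bar), with the number of probe sets above each bar. Members between 7 and 9 fell in 58.6% of cases, against 35.4% of all probe sets. Between 9 and 11, with 74 members, the shares were 52.7% and 48.5%, and under 7 they were 5.88% and 8.83%. The highest range holds only 7 members.

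Of subunits that carry other symbols, 4 were measured. Dap3, a GTP-binding protein of the small subunit, fell 2.80-fold, with intensities of 202, 496 and 933 in IP, against 1243, 1413 and 1570 in WB (-1.48, SE 0.23, adjusted p = 9.22e-06). Chchd1, another small-subunit protein, fell by 0.81 (SE 0.19, adjusted p = 0.00135). Ptcd3, which helps messages to dock, differed by -0.16 (adjusted p = 0.583), and Gadd45gip1, of the large subunit, by 0.24 on its brightest probe set (adjusted p = 0.490) and by -2.18 on its other, whose IP mean of 5.74 was below the absent control.

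Other genes of mitochondrial translation were described on the brightest probe set of each gene, a measure by which 21.9% of all genes rose and 22.1% fell, with a median of 0.01. By that measure 13 of the 76 ribosomal genes rose and 38 fell, with a median of -0.51. Of 12 translation factors 1 rose and 2 fell (median -0.05). Tufm, the elongation factor that delivers tRNA, fell 2.53-fold and Gfm1, which drives translocation, 1.92-fold, while Oxa1l, which inserts new proteins into the inner membrane, rose 2.70-fold and fell by 1.75 on another probe set.

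Of 22 genes for assembly of the mitochondrial ribosome, 7 rose and 4 fell (median 0.20). Fastkd2, an RNA-binding protein of mitochondrial RNA granules, rose 13.3-fold, at 3037, 6473 and 10423 in IP, against 335, 383 and 827 in WB (3.73, SE 0.20, adjusted p = 2.34e-13), but another of its 4 probe sets fell by 2.00, with an IP mean of 6.20 below the absent control. Dhx30, an RNA helicase, rose 2.87-fold. Noa1, a GTPase, fell by 1.64 and Ngrn by 1.48.

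Of 18 genes for transcription and RNA handling in mitochondria 3 rose and 5 fell (median -0.18). Polrmt, the mitochondrial RNA polymerase, rose 5.29-fold and Grsf1, an RNA granule protein, 5.22-fold, although Grsf1 fell by 1.45 on another probe set. Supv3l1, an RNA helicase, fell by 1.53 and Tefm, an elongation factor of that polymerase, by 1.21. Of 19 genes for charging of mitochondrial tRNAs 5 rose and 3 fell (median -0.06). Yars2 and Qrsl1 were higher by 1.42 and 1.39 on the brightest and lower on their other probe set (-1.60 and -1.11). That other Qrsl1 probe set was dim, with means of 4.92 in IP and 6.03 in WB, both below the 6.31 of the absent control in IP. Sars2 and Gatc were lower by 1.11 and 0.94.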

How the data were processed

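The deposited values are probe set intensities on a linear scale that the authors made with MAS5 (submitters' processing notes, no version). The mean of each array without its lowest and highest 2% was 500. Targets for each array were amplified from 5 ng of RNA. Groups came from the sample titles, and 0 columns were left unmapped. For the re-analysis, 16 was added and the log2 taken, which understates changes of dim probe sets, and 45037 probe sets without array controls were fitted across all probe sets with limma 3.58.1 in R 4.3.3 (intensity trend, Benjamini-Hochberg adjustment). A gene is called by its symbol in the array's annotation. The rule for values took, per subunit, the 6 largest rises and falls without overlap, 8 genes with the widest opposite calls, the 3 brightest in WB, the 3 nearest to 0 and 7 genes of differing role, with up to 2 rises and 2 falls of each other list; any member could be named. Members, lists and tests were chosen with earlier results of these data known. On simulated data for 45037 probe sets of this comparison the fit recovered 2 of 50 changes of 0.5, 14 of 50 of 1, 49 of 50 of 2 and 50 of 50 of 4 (log2), with 5 false calls. The simulation gave both groups the same SD and changed far fewer probe sets than were called in the data. Its counts therefore do not give the power or the error rate of the real comparison. Same-numbered IP and WB samples had deviations correlated from -0.05 to 0.08, so the numbers were not taken to pair them. Alternatives were other pseudocounts, scalings, brightness filters, variance settings, a replicate block, single arrays left out and other choices of probe sets.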

Additional observations from a re-analysis of the deposited data

Results flagged for a closer look

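In 10 of 98 groups of 9 arrays examined for the values above, 1 array stood apart from the others by more than Dixon's 95% limit, where chance flags about 1 in 20. Of these, 5 were IP and 5 were WB groups. All values here are log2(intensity + 16). Among IP arrays, replicate 5 was low for Mrps18a at 6.40, replicate 7 was low for Mrps21 at 6.13 and high for a Mrps9 probe set of class _x_at at 12.55, replicate 4 was high for the falling Mrps23 probe set at 6.82, and replicate 6 was low for the falling Mrps24 probe set at 5.60. Among WB arrays, replicate 4 was low for Mrpl11 (its brightest probe set) at 11.25, replicate 6 was low for Mrpl12 at 8.32, replicate 3 was low for Mrpl51 (its second brightest probe set) at 7.97, replicate 8 was high for a dim Mrpl47 probe set at 6.25 and replicate 1 was high for Mrps9 (its brightest probe set) at 10.42. Whether they are technical was not tested.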

How the results depend on the processing

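Both subunit medians stayed below 0 and below the median of all probe sets under every alternative run, by amounts that varied: large-subunit probe sets stood 0.24 to 0.63 and small-subunit probe sets 0.20 to 0.42 below the median of all probe sets. The absolute level did not hold, because the median of all probe sets was -0.23 as reported, 0.11 after quantile normalization, 0.20 after median centring and -1.15 after scaling on hybridization controls. Quantile normalization gave subunit medians of -0.19 (large) and -0.21 (small), with 10869 probe sets of the array higher. Median centring gave 22 large-subunit probe sets higher and 32 lower (median -0.11), 16 small-subunit lower (median -0.070), 15 single-probe-set genes lower and 1 higher (Mrpl22, turned to 0.42), and 12802 higher and 8322 lower over the array. Scaling on hybridization controls gave 5 large-subunit higher and 85 lower (median -1.45), 1 small-subunit higher and 45 lower (median -1.41), 4 genes with opposite calls, and 1326 higher and 30144 lower over the array. It turned Mrpl51 to -0.33, Mrps14 to -0.12, Mrps2 to -0.91, Mrps34 to -0.92 and Mrps6 to -0.50 on the probe sets described as higher or near 0. The causes were not tested.

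Fewer features were tested by construction in the next settings. A mean intensity of at least 300 left 29 large-subunit and 16 small-subunit probe sets lower, 15 single-probe-set genes lower, 6 genes with opposite calls and 7271 lower over the array. Without the shared sequence classes, 5 large-subunit and 1 small-subunit probe sets were higher, 15 single-probe-set genes lower, 2 genes had opposite calls and 4127 were higher over the array. The brightest probe set of each gene gave 8 large-subunit higher and 26 lower, 12 small-subunit lower, and 3986 higher and 4014 lower over the array when fitted alone. Gene means gave 3 large-subunit higher and 29 lower (median -0.73), 0 small-subunit higher in limma, and 2282 higher and 5279 lower over the array.

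Leaving out 1 array at a time gave 14 to 16 large-subunit higher and 46 to 51 lower (median -0.62 to -0.49), 6 to 7 small-subunit higher and 24 to 26 lower (median -0.55 to -0.43), 23 to 25 single-probe-set genes lower, 12 to 14 genes with opposite calls, and 5921 to 6507 higher and 13057 to 14031 lower over the array. With the replicate number as a block, 14 large-subunit probe sets were higher and 49 lower, and 6 small-subunit higher and 25 lower; 2 of 9 IP samples correlated best with their own number. Counts of single-probe-set genes and of opposite calls were chosen after the data were seen. Dim members (9 with both group means below 6.31, the highest mean of an absent control, reached in IP) carry little information.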
